A study of Rattus norvegicus with 12 samples.

Results

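The genes described here are 7 immediate early transcription factors, Fos, Jun, Junb, Egr1, Atf3, Myc and Nr4a1, measured by RNA-seq in 12 rat retinal libraries. They were chosen by Ensembl gene identifier, listed with the symbol, and not by a cutoff on a measured value: ENSRNOG00000008015 (Fos), ENSRNOG00000026293 (Jun), ENSRNOG00000042838 (Junb), ENSRNOG00000019422 (Egr1), ENSRNOG00000003745 (Atf3), ENSRNOG00000004500 (Myc) and ENSRNOG00000007607 (Nr4a1). The choice was made with earlier results of these data known, so it was not blind to the levels. All 7 of the 7 listed genes were present among the 32883 genes of the table, and all 7 were among the 15916 genes with a level of at least 1 TPM, a length-corrected share of the library's reads scaled to one fixed total, in at least 3 libraries. The retinas were taken on postnatal day 18 from Sprague Dawley rats that the labels call wild type. There were 4 groups of 3 libraries: sham with scrambled RNA, sham with miR-143 mimic, OIR with scrambled RNA and OIR with miR-143 mimic. OIR stands for oxygen-induced retinopathy, a model in which a change in oxygen supply disturbs the growth of the retinal vessels, and sham is the labels' control. The mimic is a synthetic RNA meant to act as the microRNA miR-143, and the scrambled RNA is its control, so every retina of the study received one of these RNAs. The labels give neither the route nor the dose. The protocol speaks of biological samples in triplicate but not of animals, so the p-values reflect the spread of libraries within groups, and libraries may share animals.

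Immediate early genes are switched on within minutes of a stimulus by transcription factors that are already in the cell, without the making of new protein. Signalling through serum response factor at CArG boxes and through CREB at cyclic AMP response elements is the textbook route. Their products are mostly transcription factors that alter a second wave of genes. Fos proteins pair with Jun proteins to form the dimer AP-1, while Jun proteins can also pair among themselves. Egr1 is a zinc finger factor, Nr4a1 an orphan nuclear receptor, Myc a partner of Max, and Atf3 a stress-induced factor of the ATF/CREB family. In the retina these genes are known to respond to light, injury and loss of blood supply.

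The 250 bases upstream of the start of a gene were at hand in RefSeq sequences of the rat build GRCr8 for Junb, Egr1 and Nr4a1, 3 of the 7 genes. These 3 are shown because the stretches of the other genes were not at hand, and because the textbook elements can be looked for in them. A link between the elements and the measured levels was not tested. All are on the plus strand, and the coordinates belong to GRCr8 and not to rn6, the build named in the submitters' processing notes. Junb lies at chr19:40080876-40081125, Egr1 at chr18:26736828-26737077 and Nr4a1 at chr7:134259888-134260137. Capitals mark CArG boxes, the core CGTCA of the cyclic AMP response element and EGR sites GCGNGGGCG, on either strand.
Junb: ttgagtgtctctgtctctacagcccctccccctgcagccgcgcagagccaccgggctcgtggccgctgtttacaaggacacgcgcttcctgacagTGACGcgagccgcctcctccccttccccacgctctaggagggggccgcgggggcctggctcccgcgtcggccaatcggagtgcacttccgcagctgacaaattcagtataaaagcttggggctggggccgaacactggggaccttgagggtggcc
Egr1: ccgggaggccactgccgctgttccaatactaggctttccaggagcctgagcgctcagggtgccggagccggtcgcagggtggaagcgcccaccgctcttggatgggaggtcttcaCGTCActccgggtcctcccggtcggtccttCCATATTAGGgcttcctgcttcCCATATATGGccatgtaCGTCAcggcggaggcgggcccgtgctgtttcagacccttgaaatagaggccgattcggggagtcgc
Nr4a1: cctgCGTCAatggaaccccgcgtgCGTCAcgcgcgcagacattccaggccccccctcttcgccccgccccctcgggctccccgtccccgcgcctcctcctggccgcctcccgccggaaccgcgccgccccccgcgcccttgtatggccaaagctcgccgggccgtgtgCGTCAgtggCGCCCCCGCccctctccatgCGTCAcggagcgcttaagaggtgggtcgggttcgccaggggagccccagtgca
The Egr1 stretch held 2 CArG boxes, CCATATTAGG and CCATATATGG, and 501 of 33469 RefSeq upstream stretches of the same length (1.5%) held at least 1. The core CGTCA occurred 4 times in Nr4a1, 2 times in Egr1 and 1 time in Junb, and 18.2% of the stretches held it. Nr4a1 also held 1 EGR site, found in 4.29% of the stretches, and none of the CGTCA cores overlapped another motif. The full element TGACGTCA (1.59% of stretches) and the AP-1 site TGANTCA (6.34%) had no match in the 3 stretches. The microRNA named in the study, in the RefSeq form rno-miR-143-3p, reads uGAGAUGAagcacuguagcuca with its seed in capitals; the labels do not give the sequence or arm of the mimic.

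Libraries held 10537600 to 13175005 reads on genes, a number worked back from the deposited TPM. The recovered reads were 223 to 4245 per library for Fos, 624 to 2494 for Jun, 195 to 1751 for Junb and 310 to 4534 for Egr1. They were 238 to 416 for Nr4a1, 58 to 129 for Atf3 and 23 to 79 for Myc, so counting error is largest for Myc. The gene length recovered with the reads was 3089 bases for Jun and 1783 bases for Junb, 2 genes without introns. RefSeq gives these symbols a span of 3094 and 1785 bases in GRCr8. For the other 5 genes the recovered length was shorter than the RefSeq span, which includes introns, so it is a weak check for them. The annotation used here did not list the Ensembl identifiers, so the symbols rest on the given pairing and, for Jun and Junb, on these lengths. For the same reason, further immediate early genes and markers of retinal cell types were not examined here. In whole retinas, fewer cells of a type and less RNA per cell cannot be told apart.

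In retinas given scrambled RNA, 6 of the 7 genes rose in OIR: Fos, Jun, Junb and Egr1 by 3.34 to 8.48 times in mean TPM, and Myc and Nr4a1 by 2.16 and 1.62 times. Atf3 did not pass the test. The test was limma on log2(TPM + 1) with p-values adjusted over all 15916 genes by the Benjamini-Hochberg method and a threshold of 0.05, and 6.79% of these genes were called higher in this comparison. The 3 OIR libraries lay above the 3 sham libraries for the same 6 genes, as they did for 19.7% of all genes tested. The median log2 fold change of the 7 genes was 1.70, and that of all genes tested was 0.05. Sham and OIR column names carry separate runs of numbers, all sham numbers being below all OIR numbers, so whatever the numbers order cannot be told apart from OIR.

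**Figure D1:**
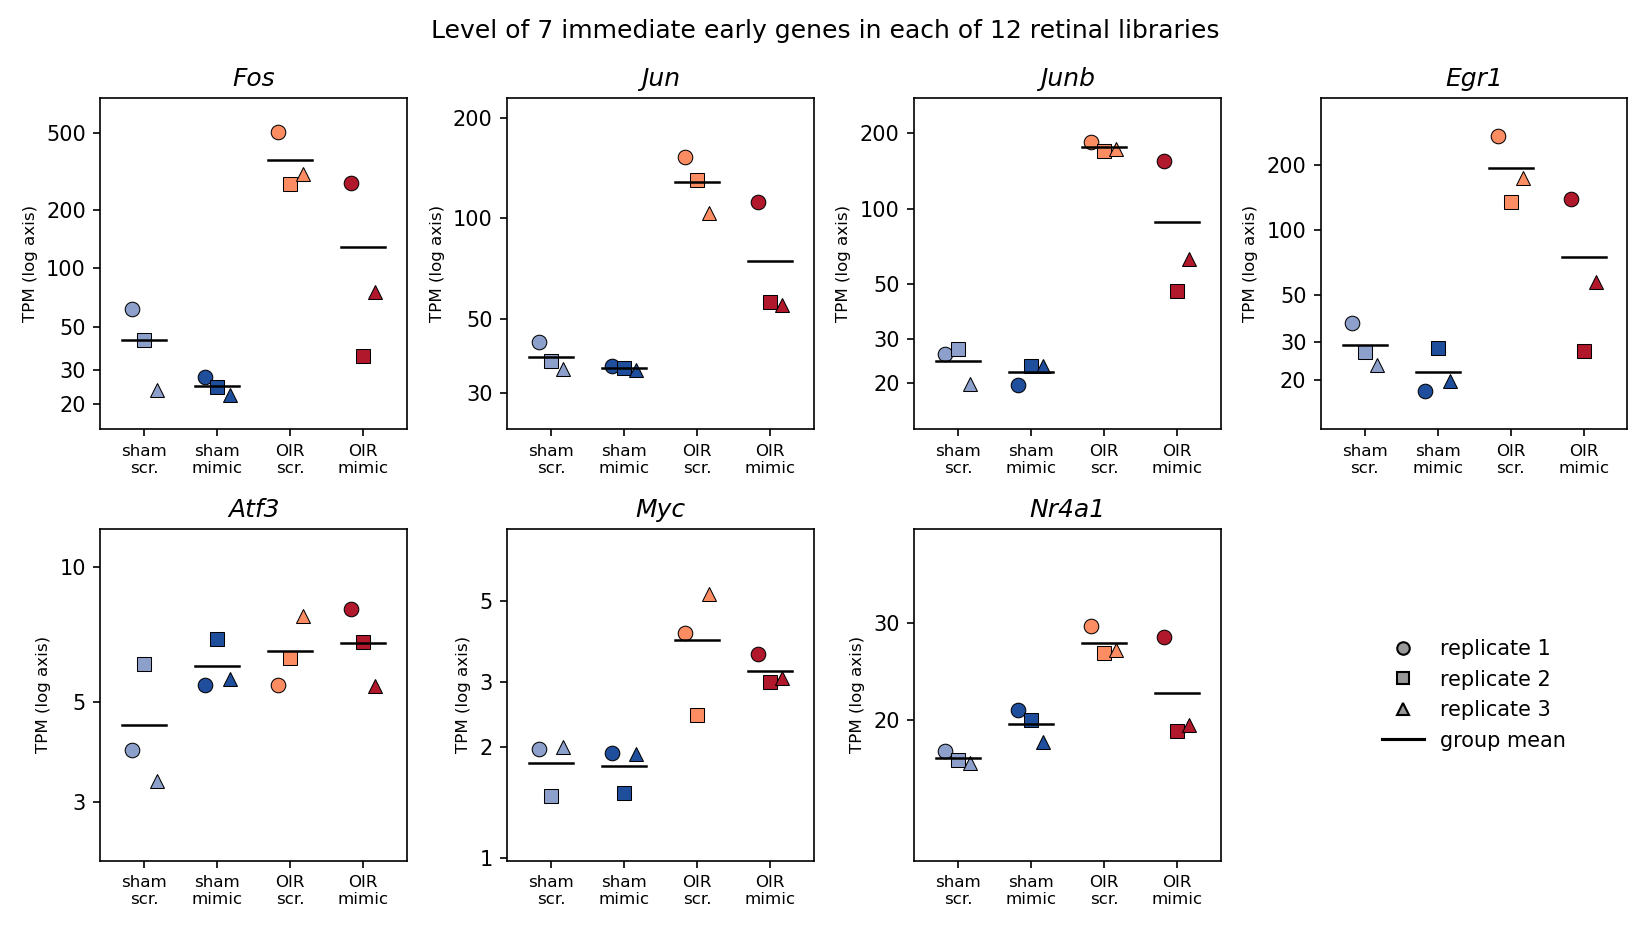
TPM of each gene (log axis, a separate range in each panel) in 4 groups of 3 libraries; the symbols stand for replicates and the line for the group mean. Fos, Jun, Junb, Egr1 and Nr4a1 were high in the 3 OIR scrambled libraries and in OIR mimic replicate 1, and lower in OIR mimic replicates 2 and 3.

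Fos, the AP-1 subunit that needs a Jun partner, stood at 61.9, 42.6 and 23.5 TPM in sham scrambled replicates 1, 2 and 3. In OIR scrambled replicates 1, 2 and 3 it reached 506, 274 and 306 TPM. The lowest OIR library was thus several times the highest sham library, although the sham libraries themselves differed by 2.63 times. The group means were 42.7 ± 19.2 and 362 ± 126 TPM (SD, n = 3), with a log2 fold change of 3.10 (SE 0.64, limma adjusted p 0.0155). The call was lost without sham scrambled replicate 3, the library with the lowest Fos level of its group (limma adjusted p 0.0576). It was also lost without both sham libraries whose column names share a number (limma adjusted p 0.0524). The log2 fold change in that fit was 3.42, larger than in the main fit. The limma fit takes a shared estimate of the spread from all 4 groups, so libraries outside a comparison also bear on its p-values. Without OIR mimic replicate 1, the limma adjusted p of Fos in this comparison was 0.00234.

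Jun, which can pair with Fos or with itself, stood at 42.7, 37.5 and 35.5 TPM in the sham scrambled libraries and at 153, 130 and 103 TPM in the OIR scrambled libraries. Its groups did not overlap, and its log2 fold change was 1.70 (SE 0.23, limma adjusted p 0.0023). Junb, a Jun relative that often acts as a weaker or opposing AP-1 partner, stood at 26.1, 27.3 and 19.9 TPM in sham and at 185, 170 and 173 TPM in OIR. The 3 OIR scrambled values of Junb lay within 1.09 times of each other, the tightest of the strongly raised genes. The log2 fold change of Junb was 2.81 (SE 0.34, limma adjusted p 0.00132).

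Egr1 stood at 36.7, 26.9 and 23.5 TPM in the sham scrambled libraries and at 274, 135 and 175 TPM in the OIR scrambled libraries. Its log2 fold change was 2.67 (SE 0.48, limma adjusted p 0.00822), and OIR scrambled replicate 1 was the highest library, as it was for Fos, Jun, Junb and Nr4a1. Nr4a1 changed little in size but evenly, from 17.6, 16.96 and 16.7 TPM in sham to 29.6, 26.5 and 26.8 TPM in OIR. For Nr4a1 the log2 fold change was 0.66 (SE 0.13, limma adjusted p 0.00907).

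Myc was the lowest of the 7 genes, at 1.97, 1.47 and 2.00 TPM in the sham scrambled libraries and 4.08, 2.45 and 5.23 TPM in the OIR scrambled libraries. Myc gave a log2 fold change of 0.77 (SE 0.21, limma adjusted p 0.0371), a scale that understates the change of so low a gene. The lowest OIR value rests on 38 reads, with an exact Poisson 95% interval of 1.73 to 3.36 TPM, and the highest sham value on 32 reads, with an interval of 1.36 to 2.82 TPM. These intervals, which cover counting error only, overlap. The call of Myc held in 15 of 24 alternative settings. Among the 9 that lost it were the fit without OIR scrambled replicate 3 (limma adjusted p 0.137) and the fits without each sham scrambled library in turn (0.0684 to 0.122). The log2 fold change was 0.58 without OIR scrambled replicate 3. It was 0.81, 0.68 and 0.82 without sham scrambled replicates 1, 2 and 3.

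Atf3 stood at 3.92, 6.10 and 3.35 TPM in sham scrambled and at 5.47, 6.26 and 7.77 TPM in OIR scrambled libraries. The groups overlapped, and the log2 fold change of 0.48 (SE 0.20, 95% interval 0.04 to 0.92) did not pass the test (limma adjusted p 0.156). It passed in none of the 25 alternative settings.

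**Figure D2:**
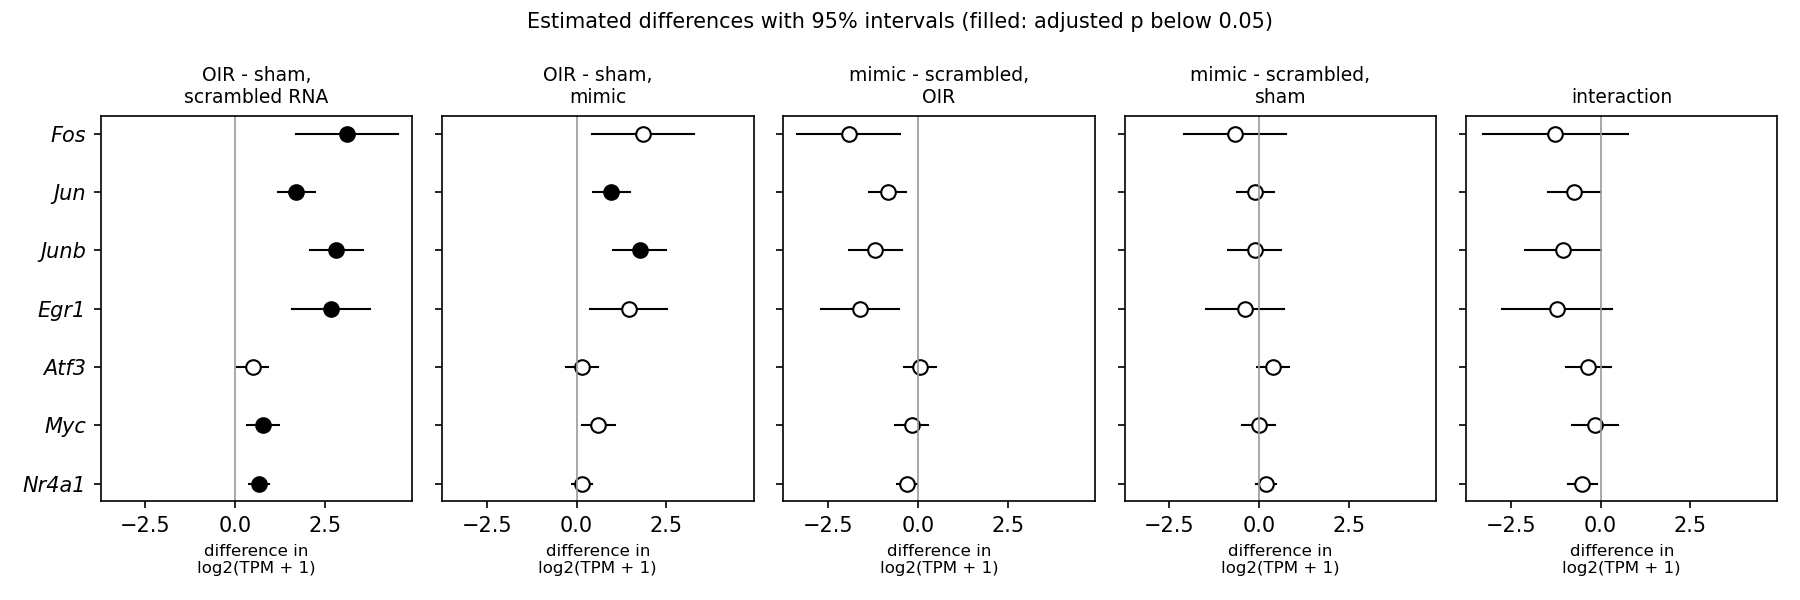
Difference in log2(TPM + 1) for each gene in 5 comparisons, with its 95% interval from the limma fit; a filled point has an adjusted p below 0.05. Filled points are found in the 2 comparisons of OIR with sham, 6 with scrambled RNA and 2 with the mimic, and none in the comparisons of mimic with scrambled RNA or in the interaction.

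In retinas given the mimic, Jun and Junb rose in OIR, and the other 5 genes did not pass the test. The share of all tested genes called higher was 9.76%. The OIR libraries lay above the sham libraries for Fos, Jun, Junb and Myc, and this was so for 20.1% of all genes. Single OIR libraries differed widely here. For Fos, Jun, Junb, Egr1 and Nr4a1, the level in OIR mimic replicate 1 was close to the OIR scrambled libraries, and it was lower in replicates 2 and 3.

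Fos stood at 27.3, 24.4 and 22.1 TPM in the sham mimic libraries and at 277, 35.2 and 75.9 TPM in OIR mimic replicates 1, 2 and 3. The log2 fold change was 1.85 (SE 0.64, limma adjusted p 0.071). Single libraries moved this value both ways: it was 1.05 without OIR mimic replicate 1 (limma adjusted p 0.138) and 2.52 without replicate 2 (0.0162). It also passed with library weights (limma adjusted p 0.0116). Egr1 stood at 17.7, 28.1 and 19.8 TPM in sham mimic and at 139, 27.4 and 57.3 TPM in OIR mimic libraries, so OIR mimic replicate 2 lay inside the sham range. Its log2 fold change was 1.45 (SE 0.48, limma adjusted p 0.0609), with 0.86 without OIR mimic replicate 1 (limma adjusted p 0.151) and 2.01 without replicate 2 (0.0105). Both genes passed in few of the 25 alternative settings, Fos in 3 and Egr1 in 2.

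Jun stood at 36.1, 35.7 and 35.0 TPM in the sham mimic libraries, the most even of the 7 genes there, and at 112, 56.2 and 55.1 TPM in OIR mimic. Jun gave a log2 fold change of 0.96 (SE 0.23, limma adjusted p 0.0149), and 0.63 without OIR mimic replicate 1 (limma adjusted p 0.00988). The call was lost when only the groups compared were fitted (limma adjusted p 0.0505) and without both sham libraries that share a number (0.0538). In these fits the log2 fold change was 0.96 and 0.97, so the estimate hardly moved. Junb stood at 19.6, 23.3 and 23.4 TPM in sham mimic and at 155, 46.7 and 62.5 TPM in OIR mimic. Its log2 fold change of 1.76 (SE 0.34, limma adjusted p 0.0052) passed in each of the 25 alternative settings.

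Myc stood at 1.93, 1.499 and 1.92 TPM in sham mimic and at 3.59, 3.02 and 3.08 TPM in OIR mimic libraries. Unlike Fos and Egr1, it was at a similar level in the 3 OIR mimic libraries. Its log2 fold change was 0.61 (SE 0.21, limma adjusted p 0.0623), and it passed in 6 of 24 alternative settings. Nr4a1 stood at 20.8, 20.01 and 18.3 TPM in sham mimic and at 28.4, 19.1 and 19.7 TPM in OIR mimic, where replicates 2 and 3 lay inside the sham range (log2 fold change 0.15, SE 0.13, limma adjusted p 0.45). Its sign changed without OIR mimic replicate 1 (-0.02). Atf3 stood at 5.47, 6.93 and 5.64 TPM in sham mimic and at 8.08, 6.80 and 5.43 TPM in OIR mimic (log2 fold change 0.14, SE 0.20, limma adjusted p 0.684).

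Averaged over both RNAs, the same 6 genes as with scrambled RNA were higher in OIR, where 17.5% of all genes tested were called higher. The libraries of both earlier comparisons make up this average. The log2 fold changes were 2.48 for Fos (SE 0.45, limma adjusted p 0.00267), 2.28 for Junb (SE 0.24, 0.0001), 2.06 for Egr1 (SE 0.34, 0.0014) and 1.33 for Jun (SE 0.16, 0.000217). They were 0.69 for Myc (SE 0.15, limma adjusted p 0.00441) and 0.41 for Nr4a1 (SE 0.09, 0.00559), and these calls held in each alternative setting. Atf3 gave 0.31 (SE 0.14, limma adjusted p 0.126), and passed without sham scrambled replicate 2 (0.0374). Each of the 6 OIR libraries exceeded each of the 6 sham libraries for Jun, Junb and Myc, as for 9.78% of all genes. For Fos and Egr1 5 of the 6 OIR libraries did so, for Nr4a1 4, and for Atf3 2.

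An exact permutation test exchanged OIR and sham labels within each RNA, in 400 arrangements with a smallest possible p of 0.005 (two-sided). That p of 0.005 was reached for Fos, Jun, Junb and Myc. The exact p was 0.01 for Egr1, 0.035 for Nr4a1 and 0.09 for Atf3. These are 7 unadjusted values for genes chosen with earlier results known.

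**Figure D3:**
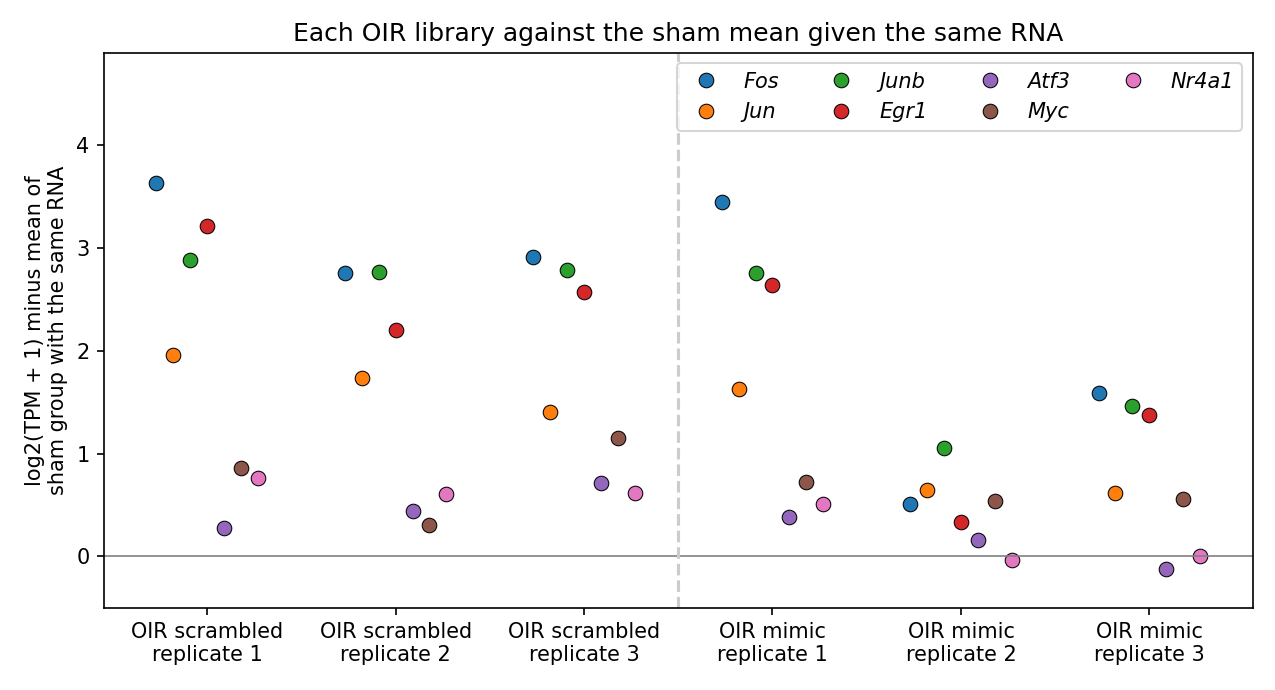
Difference in log2(TPM + 1) between each OIR library and the mean of the sham group given the same RNA, 1 point per gene. For Fos the first 4 libraries lie between 2.76 and 3.64, and OIR mimic replicates 2 and 3 at 0.50 and 1.59; Myc shows no such step.

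The libraries within OIR fell in almost the same order for the strongly raised genes. For Fos and for Egr1 the order from high to low was OIR scrambled replicate 1, scrambled replicate 3, mimic replicate 1, scrambled replicate 2, mimic replicate 3 and mimic replicate 2. Fos differed by 14.4 times between the first and last of these libraries, and Egr1 by 10.01 times. For Junb and Jun the same 4 libraries were the highest and mimic replicates 2 and 3 the lowest, with a range of 3.96 and 2.77 times. Nr4a1 had the same division over a range of 1.55 times. Myc and Atf3 did not: OIR scrambled replicate 2 was the lowest OIR library for Myc, and OIR mimic replicate 3 for Atf3.

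The spread among the 3 OIR mimic libraries was large even among all genes for Fos, Egr1, Junb and Jun. The SD of log2(TPM + 1) was 1.49 for Fos, the 86th highest of 15916 genes in that group, and 1.15 for Egr1, the 220th. It was 0.89 for Junb, 0.58 for Jun, 0.30 for Nr4a1 and 0.25 for Atf3, against a median of 0.16 for all genes. For Myc it was 0.11, below that median. In the OIR scrambled group the SD of Junb was 0.06, also below the median of its group, 0.12. Among sham scrambled libraries Fos was the most variable of the 7, with an SD of 0.68. That SD was at percentile 95.4 of all genes, and the SD of Fos was at percentile 90.7 in OIR scrambled and 58.2 in sham mimic. Egr1 was at percentile 85.1 in sham scrambled, 87.5 in sham mimic and 91.9 in OIR scrambled.

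The column names of the 4 high OIR libraries carry the 4 lowest of the OIR numbers, and those of OIR mimic replicates 2 and 3 the highest. No label explains the numbers, and their part in these levels was not tested. The tags for disease and transfection are missing for 2 libraries, OIR scrambled replicate 3 and the first replicate of OIR mimic, whose groups come from their titles. Both are among the 4 high libraries.

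Each OIR mimic library was also set against the size of the OIR difference seen with scrambled RNA. The percentage is the log2(TPM + 1) difference of a mimic library from the sham mimic mean, divided by the difference of the OIR and sham scrambled means. No library enters both parts of the ratio. In OIR mimic replicate 1 it was 111% for Fos, 95.5% for Jun, 98.1% for Junb, 99.0% for Egr1, 94.4% for Myc and 76.4% for Nr4a1. In replicate 2 it was 16.3% for Fos, 37.8% for Jun, 37.4% for Junb, 12.7% for Egr1 and -5.89% for Nr4a1, but 69.4% for Myc. Replicate 3 gave 51.3% for Fos, 36.2% for Jun, 52.1% for Junb, 51.6% for Egr1 and -0.231% for Nr4a1, and 72.3% for Myc.

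Replicates 2 and 3 thus held a smaller part of the scrambled difference than replicate 1 for each of these 6 genes, and Myc kept the most. The Myc percentages rest on 53, 48 and 42 reads in OIR mimic replicates 1, 2 and 3. The exact Poisson 95% intervals of these Myc levels overlap. The other 1075 genes called higher with scrambled RNA had a median of 107% in replicate 1, 87.5% in replicate 2 and 89.2% in replicate 3. They were chosen for a large difference with scrambled RNA, and the 6 genes shown were called in the same comparison. So 100% is not the value to expect of either set. The 305 of the 1075 genes that were higher by over 1 log2 had medians of 107%, 87.4% and 80.7%. Most of the 1075 differed by less, and a small divisor makes the percentage less certain. Of these 1075 genes, 40 had a percentage as low as Fos or lower in replicate 2 and 140 in replicate 3. For Egr1 the numbers were 33 and 144, for Junb 94 and 144, for Jun 94 and 68, and for Nr4a1 16 and 18. For Myc they were 336 and 326, well inside the range of the other genes.

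**Figure D4:**
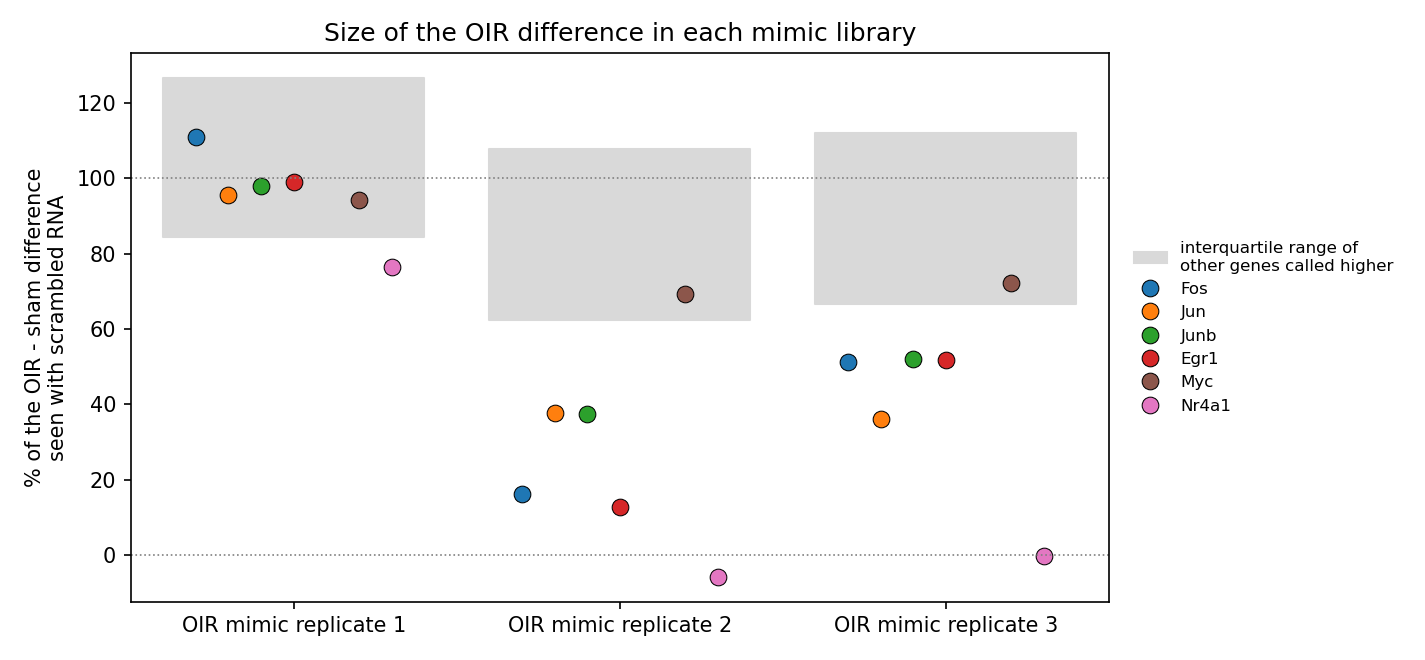
Difference of each OIR mimic library from the sham mimic mean, in % of the difference between OIR and sham with scrambled RNA, for the 6 genes called in the scrambled comparison; the grey band is the interquartile range of the other 1075 genes called higher there. Fos, Jun, Junb, Egr1 and Nr4a1 lie below the band in replicates 2 and 3, and Myc lies inside it in all 3.

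The mimic was compared with scrambled RNA within OIR. None of the 7 genes passed the test, and no gene of all 15916 did (limma, 0%). At an unadjusted p below 0.05 there were 5 of the 7, Fos, Jun, Junb, Egr1 and Nr4a1, all lower with the mimic, against 9.37% of all genes in either direction. Limma voom on the recovered reads also called 0 of the 7. The log2 fold changes were -1.93 for Fos (95% interval -3.35 to -0.51), -1.61 for Egr1 (-2.69 to -0.54), -1.18 for Junb (-1.93 to -0.44), -0.85 for Jun (-1.36 to -0.33) and -0.31 for Nr4a1 (-0.59 to -0.03). Their limma adjusted p was 0.462, and 0.494 for Nr4a1. Myc gave -0.18 (95% interval -0.63 to 0.28) and Atf3 0.05 (-0.40 to 0.49).

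Junb was the single member whose 3 OIR mimic libraries all lay below the 3 OIR scrambled libraries, as 9.01% of all genes did. For Fos, Egr1, Jun and Nr4a1, OIR mimic replicate 1 lay within the OIR scrambled range. Without that library Jun and Junb were called lower with the mimic, with log2 fold changes of -1.18 and -1.68 (limma adjusted p 0.0195 and 0.00541), and 23 of the 15916 genes (0.145%) were called lower in that fit. Without OIR mimic replicate 2 the values went the other way, to -0.69 for Jun and -0.83 for Junb (limma adjusted p 0.984 for both). Fos ran from -2.73 without replicate 1 to -1.26 without replicate 2, and Egr1 from -2.20 to -1.05, with no call for either. The OIR scrambled libraries serve in this comparison and in that of OIR with sham, so the opposite signs of the 2 sets of values are not independent. The mimic columns carry the letter L and the scrambled columns the letter R, and letter and RNA cannot be told apart.

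In sham retinas none of the 7 genes passed the test of mimic against scrambled RNA, where limma called 0% of 15916 genes. Of the 7, 0 had an unadjusted p below 0.05, as had 2.09% of all genes, and 0 were called by limma voom on recovered reads. Fos gave a log2 fold change of -0.67 (95% interval -2.10 to 0.75), with a sham scrambled mean of 42.7 ± 19.2 TPM and a sham mimic mean of 24.6 ± 2.62 TPM (SD, n = 3). Egr1 gave -0.40 (-1.47 to 0.68), Junb -0.13 (-0.87 to 0.61), Jun -0.11 (-0.62 to 0.41) and Myc -0.02 (-0.47 to 0.44). A 2-fold lower level of Fos or Egr1 with the mimic lies inside these intervals, and a 2-fold higher level lies outside them. Nr4a1 was the 1 member whose groups did not overlap: its sham mimic libraries, at 18.3 to 20.8 TPM, lay above the sham scrambled libraries, at 16.7 to 17.6 TPM, as did 2.83% of all genes (log2 fold change 0.19, 95% interval -0.09 to 0.47, limma adjusted p 1). Atf3 gave 0.39 (-0.05 to 0.83).

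The interaction, the mimic difference in OIR minus that in sham, was not called for any of the 7 (limma, 0 of 15916 genes, 0%; limma voom 0 of the 7). At an unadjusted p below 0.05 there were 3 of the 7, Jun, Junb and Nr4a1, against 3.70% of all genes. The log2 estimates were -0.74 for Jun (95% interval -1.46 to -0.02), -1.05 for Junb (-2.10 to -0.0032) and -0.51 for Nr4a1 (-0.90 to -0.11). Fos gave -1.26 (-3.27 to 0.76) and Egr1 -1.21 (-2.73 to 0.30). Without OIR mimic replicate 1 the estimates were -2.06 for Fos, -1.81 for Egr1 and -1.55 for Junb, and without replicate 2 they were -0.59, -0.66 and -0.70, none of them called. With 3 libraries a group and the spread of the OIR mimic group, these intervals are wide.

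TPM is a level per length, so the genes can be set against each other. In sham scrambled libraries Fos was 0.664 to 1.45 times the level of Jun, and in OIR scrambled libraries 2.10 to 3.31 times. The ratio was 0.631 to 0.757 in sham mimic libraries and 2.47, 0.627 and 1.38 in OIR mimic replicates 1, 2 and 3. Fos thus exceeded Jun by more in the high OIR libraries than in any sham library. Junb over Jun ran from 0.541 to 0.730 in the 6 sham libraries and from 0.832 to 1.67 in the 6 OIR libraries, so Junb was below Jun in each sham library and above it in 5 of 6 OIR libraries, the exception being OIR mimic replicate 2. Among the 15916 genes, the level of Fos ranked 3482nd to 7379th in sham libraries and 232nd to 528th in the OIR scrambled libraries. In OIR mimic replicates 1, 2 and 3 it ranked 526th, 5380th and 2776th, the second of these inside the sham range.

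The likeness of levels over the 12 libraries was measured by Pearson's r of log2(TPM + 1), given here as a description because OIR and sham libraries form separate sets. Among 15915 other genes, Egr1 was the 3rd most like Fos (r = 0.986, Spearman rho 0.916), Jun the 6th (r = 0.966) and Junb the 9th (r = 0.961). Nr4a1 was the 97th (r = 0.897), Myc the 974th (r = 0.785) and Atf3 the 6227th (r = 0.391). After the mean of each group was subtracted, r with Fos was 0.929 for Egr1, 0.916 for Junb, 0.895 for Nr4a1 and 0.867 for Jun, but 0.244 for Myc and 0.256 for Atf3. Many other genes were as like Fos on this measure, where Egr1 ranked 59th, Junb 95th, Nr4a1 177th and Jun 340th of 15915. The centred values rest largely on the OIR mimic libraries, where Fos, Egr1, Junb, Jun and Nr4a1 each had their largest SD. For Fos it was 1.49 there, against 0.68 in sham scrambled, 0.15 in sham mimic and 0.47 in OIR scrambled libraries. The centred r thus largely restates the difference of OIR mimic replicate 1 from replicates 2 and 3. Outside the 7, and among genes with a mean of at least 5 TPM, the highest r of all was that of ENSRNOG00000058388 with Fos (0.993), followed by ENSRNOG00000054344 with Junb (0.989). The former ran from 5.61 to 14.7 TPM in sham and stood at 98.6, 55.8 and 68.7 TPM in OIR scrambled and 76.7, 11.4 and 20.8 TPM in OIR mimic libraries. The table does not pair these identifiers with names.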

How the data were processed

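RNA of dissected retinas was sequenced as single-end reads, per the labels' protocols, which speak of miRNA libraries although the table lists Ensembl genes. Tools listed in the submitters' processing notes, without roles, are TopHat, Cufflinks, Cuffdiff and FastQC, with rn6 as the build; no source names the counter or annotation release. Values were deposited as TPM, reads per base of gene scaled to one total per library. Columns were matched to samples through the lines above the table (0 columns without a sample). The 7 genes and all lists were chosen with earlier results of these data known.

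Whole reads and gene lengths were recovered from the TPM for 22310 of 22310 rows above 0, each read within 0.02 of a whole number; both could be multiples of those given. Log2(TPM + 1) of 15916 genes (at least 1 TPM in at least 3 libraries) entered limma 3.58.1 (R 4.3.3) with 4 group means, trend and robust options, and Benjamini-Hochberg adjustment over all genes. The scripts were tested on simulated data. Named were all 7 genes and the 2 others most like any of them. The planned list of related genes and the cell type markers needed symbols and were not run. Alternatives were other pseudocounts (0.1, 0.5), filters, scalings, weights, a replicate block, voom on recovered reads, single libraries left out, both untagged libraries left out, and, chosen after seeing the data, leaving out both libraries with the shared column number.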

Additional observations from a re-analysis of the deposited data

How the results depend on the processing

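The number of the 7 genes called stayed at 6 or within 1.5 times of it for OIR against sham with scrambled RNA and averaged, in each alternative run. With scrambled RNA it fell to 4 without sham scrambled replicate 3, where 4.45% of all genes were called higher, against 6.79% in the main fit. It was also 4 without both libraries sharing a column number (3.27%), and 5 in several other settings. For OIR against sham with the mimic it was 2, but 5 with library weights, 4 with the replicate block, 4 without OIR mimic replicate 2, 1 without both libraries sharing a column number (added after seeing the data) and 1 when only the groups compared were fitted; with single libraries left out it ran from 2 to 4. The share of all genes called higher, 9.76%, was 20.3% with library weights, 10.6% with the block, 9.61% without OIR mimic replicate 2, 7.14% without the shared number and 7.59% with only the groups compared. For the mimic in OIR it was 0, but 2 without both untagged libraries, and 0 to 2 with single libraries left out. Of all genes, 0.170% were called lower without the untagged libraries and 0.145% without OIR mimic replicate 1. The cause was not tested. With the replicate block, Fos (limma adjusted p 0.030) and Myc (0.0388) were added in the mimic comparison, and no other call changed. Replicate numbers were not taken as pairs: deviations of same-numbered libraries correlated by -0.0481 to 0.258. The 0.258 was that of sham scrambled replicate 1 with sham mimic replicate 1. These are the libraries sharing a column number, and the main fit treated them as independent. In 17 of 36 comparisons of a library with another group, which overlap, the correlation was best with its own number.

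Of 1030 gene values under alternatives, 15 changed sign, none of them called. For Nr4a1 in OIR against sham with the mimic it was -0.0202 without both untagged libraries and -0.0202 to 0.252 with single libraries left out. For Atf3 with the mimic in OIR it was -0.0232 with library weights and -0.0719 to 0.177 with single libraries left out, and for Myc there -0.414 to 0.0116. In sham, Junb was at 0.00353 without the libraries sharing a number. Myc in sham was at 0.00497 with median-ratio scaling, 0.0548 with quantile normalisation, 0.118 with weights, 0.00803 with voom and -0.106 to 0.0598 with single libraries left out. The interaction of Myc ran from -0.399 to 0.027 with single libraries left out. Depth limits Myc most, with 23 to 79 reads per library. A filter of 5 TPM leaves Myc out of the test.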

Other observations

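Among the 6 sham libraries, Fos and Jun fell in the same order of level: scrambled replicate 1, scrambled replicate 2, mimic replicate 1, mimic replicate 2, scrambled replicate 3 and mimic replicate 3. Fos ran from 22.1 to 61.9 TPM over these libraries and Jun from 35.0 to 42.7 TPM. Egr1 was likewise highest in sham scrambled replicate 1, at 36.7 TPM, but lowest in sham mimic replicate 1, at 17.7 TPM. The 2 libraries that share a column number therefore held the highest and the lowest sham level of Egr1. Nr4a1 had another order in sham, with the 3 mimic libraries above the 3 scrambled ones.

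Egr1 over Fos was 0.495 to 0.570 in the 3 OIR scrambled libraries, 0.501 in OIR mimic replicate 1, and 0.778 and 0.755 in OIR mimic replicates 2 and 3. The 6 sham libraries ran from 0.593 to 1.15. The 4 OIR libraries with the highest Fos level were therefore also those with the lowest Egr1 level per unit of Fos, below each sham library. Fos is the divisor of this ratio, so a high Fos level by itself lowers it.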
